A study of Mus musculus with 6 samples.

Results

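The Gli1+ mesenchymal cells of the mouse Achilles tendon were compared between 21 days post-injury (dpi) and uninjured tendon. A cell barcode was a member if it held at least 1000 unique molecular identifiers (UMIs, which mark single transcript molecules), at least 200 genes and at most 5% mitochondrial UMIs. It also had to hold at least 1 UMI of Pdgfra, a receptor of connective tissue cells, and 0 UMIs of Ptprc, a leukocyte gene, and of Cdh5, an endothelial gene. By this rule 7403 of the 84194 barcodes of the series were members, 1598 of them in the uninjured and 5805 in the 21 dpi library. The levels of the rule genes were fixed by the choice and are no result.

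Both libraries came from Gli1-CreERT2; Ai9 reporter mice treated with tamoxifen, and cells were sorted by their fluorescence into a Gli1+ and a Gli1- fraction. The Cre is driven from the Gli1 locus, so the reporter marks cells that used Gli1 at the time of induction and their descendants, not the present transcript. Injured mice underwent tenotomy, in which the Achilles tendon is clamped and cut, whereas the uninjured group carried the same alleles and received tamoxifen without injury. The labels give 8 mice per group and equal sexes, and each sort of each group is a single pooled library with no map from cells to mice. The series holds 6 libraries, of which those of 7 dpi and of the Gli1- sort are used for side-by-side values. Levels are given as CPM, the UMIs of a gene in all member cells of a library for every 1000000 UMIs of these cells. All intervals are 95% intervals and cover counting error alone, since 1 library per condition leaves no spread between mice and allows no test.

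Tendon connective tissue cells assemble parallel bundles of type I collagen, and cells of the sheath around the tendon include progenitors. After tenotomy, mouse Achilles tendons heal by scar and, over weeks, form cartilage that is replaced by bone, a process called heterotopic ossification. Hedgehog signaling is read out by its target gene Gli1. The Gs protein encoded by Gnas raises cyclic AMP, which activates protein kinase A (PKA) and factors of the CREB family.

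Members made up 21.3% (20.3 to 22.2) of the 7516 uninjured cells that passed the filters and 54.3% (53.3 to 55.2) of the 10695 cells at 21 dpi. The uninjured library stood apart from the other 5 in its leukocytes, as 4298 of its cells (57.2%) held a Ptprc UMI, against 3 cells at 21 dpi and at most 37 cells (0.305%, Gli1- uninjured) in any other library. Whether its sort gate was the same is not given in the sources used here, and the shares of members follow this makeup. Median depth was 9021.5 and 9946 UMIs per member cell, and with fewer members the uninjured total was lower, at 16279283 against 65877546 UMIs. Of all barcode sequences 27 occurred in both libraries, and 4 of them were member cells in both. A single Pdgfra UMI made the call in 19.8% of uninjured and 36.4% of 21 dpi members. Xist and 4 Y-linked genes showed unequal sexes in the 2 libraries. At 21 dpi 94.3% of members held Xist and no Y-linked UMIs and 5 cells the reverse, whereas the uninjured library held 63.5% and 23.6%. Sex and injury are thus partly confounded, and the counts of called genes and the log2 ratios of named genes were recomputed in the 5474 and 1014 cells with Xist and no Y-linked UMIs, called Xist-only cells below. The Gli1- uninjured library and both 7 dpi libraries were almost without Xist-only cells. They also held Cntn5, a background transcript, at 150.3 to 477.3 CPM, whereas the compared libraries held it at 2.89 and 0.273 CPM.

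Of the 11 mesenchymal markers, which include the rule gene Pdgfra, all were detected in both libraries, with Col1a2 at 5249 CPM in uninjured and 10135 CPM in 21 dpi members and the transcription factor Prrx1 at 414 and 364 CPM. The markers of other cell types were low in sum but not absent, apart from Ptprc and Cdh5, which the rule set to 0. The 24 immune markers summed to 135 and 245 CPM and the 11 endothelial markers to 34.6 and 24.6 CPM. Of 5 immune markers of at least 10 CPM in either library, 3 were at least 2-fold higher and 1 lower. With the TMM scaling described below these counts were 4 and 1. The higher ones were Srgn at 22.9 and 149 CPM, Trdc at 0.676 and 28.6 CPM and S100a8 at 8.60 and 23.9 CPM. The lower one was Lyz2 at 27.3 and 5.18 CPM, and Cd3e and Nkg7 were at 0 UMIs at 21 dpi. Of these 5 markers 3, among them Trdc and S100a8, reached 10 CPM at 21 dpi alone and 1, Lyz2, in uninjured cells alone. Their direction was thus fixed. Srgn made up the largest part of the immune sum at 21 dpi, and endothelial cells held it at 603 and 381 CPM. Of the immune markers under 10 CPM in both libraries only H2-Ab1 was higher at 21 dpi, at 2.40 and 3.23 CPM. Lower ones included Laptm5 (3.81 and 0.0152 CPM), Cd52 (5.84 and 0.334 CPM) and Fcer1g (7.80 and 0.638 CPM). The higher immune sum is thus no measure of more leukocytes. The 12 epidermal markers summed to 445 CPM in uninjured and 1006 CPM in 21 dpi members, with the keratin gene Krt14 at 54.8 and 396 CPM. Pericyte and smooth muscle markers summed to 122 and 388 CPM, Schwann cell markers to 508 and 280.5 CPM and skeletal muscle markers to 66.3 and 14.5 CPM. Within the pericyte and smooth muscle sums Acta2 alone held 13.1 and 238 CPM. The 5 erythroid markers summed to 135 and 2.60 CPM. Of the epidermal markers 6 of 12 were at least 2-fold higher at 21 dpi and 1 lower (8 and 1 with TMM scaling). Of these 12, 3 reached 10 CPM at 21 dpi alone, so that their direction was fixed. Over all compared genes 6.28% were higher and 11.9% lower, and with TMM scaling 14.0% and 5.84%. An alternative that left out every cell with a UMI of 11 defining markers of these types kept 900 uninjured and 2169 21 dpi cells.

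Across 9464 genes with at least 10 CPM in either library, 594 (6.28%) were at least 2-fold higher at 21 dpi and 1129 (11.9%) at least 2-fold lower. A gene past this fold is called higher or lower below, which is a rule of size and not a test. The median log2 ratio of 21 dpi over uninjured cells was -0.21. With the TMM factors of edgeR, another scaling, every log2 ratio was larger by 0.41 and the median was 0.20. List medians with TMM scaling are to be read against 0.20. By this scaling 1322 genes (14.0%) were called higher and 553 (5.84%) lower. The share of calls that pointed up was therefore 34.5% by total UMIs and 70.5% with TMM scaling, and counts of gene lists are given with both. They are to be read against these shares over all genes, and they were not tested. A gene of at least 10 CPM in 1 library alone had its direction fixed by that minimum, which held for 438 genes at 21 dpi and 999 in uninjured cells. Any compared gene named in this text with a level under 10 CPM in 1 of the 2 libraries is such a case. The number of such members is given for the gene lists that had more than 2 of them on one side and for Hedgehog and contractile genes. It is also given for the marker lists whose calls are counted above. In Xist-only cells, 606 of 9394 genes (6.45%) were higher and 1033 (11.0%) lower. Of the main calls, 551 of 594 higher and 964 of 1129 lower genes were called in the same direction in Xist-only cells, and 0 in the opposite direction. The Xist-only cells are part of the same members, 5474 of 5805 at 21 dpi and 1014 of 1598 uninjured. This overlap is therefore no independent check. The plot of levels shows both groups of called genes, among them Saa3, Hp and Slpi far above the diagonal.

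**Figure D1:**
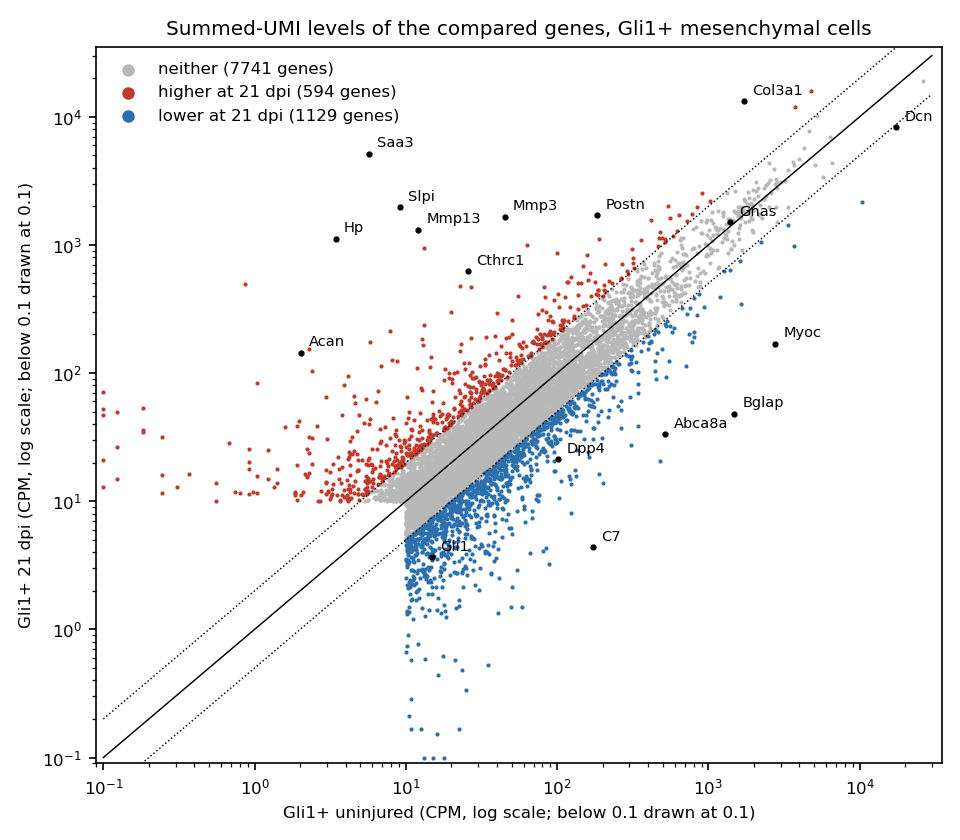
Levels of the 9464 compared genes in Gli1+ mesenchymal cells, uninjured on the horizontal and 21 dpi on the vertical axis, both as CPM on log scales. Each point is a gene, the solid line marks equal levels and the dotted lines a 2-fold difference. Red points are the 594 higher and blue points the 1129 lower genes, and named genes are in black.

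The 15 genes with the highest ratios included those of acute phase proteins (Saa3 and Hp), neutrophil chemokines (Cxcl5 and Cxcl2) and matrix proteases (Mmp13 and Mmp3). They were ranked among genes of at least 100 CPM in the higher library. Predicted, mitochondrial, ribosomal protein and sex genes and markers of other cell types were left out of this ranking. Saa3, an acute phase serum amyloid protein, was at 5.71 CPM (4.61 to 7.00) in uninjured members and at 5162 CPM (5145 to 5179.9) at 21 dpi, a log2 ratio of 9.82 (9.53 to 10.13). Hp, which encodes the hemoglobin-binding protein haptoglobin, was at 3.44 and 1121 CPM (log2 ratio 8.35). Slpi, a secreted inhibitor of leukocyte proteases, was at 9.15 and 1969 CPM (7.75). All 3 genes were thus low in uninjured and high in 21 dpi cells. Slpi is also an epidermal gene, and without the cells that held foreign markers its log2 ratio was 7.71 and that of Saa3 9.54. In thinned cells the log2 ratios of Saa3, Hp and Cxcl5 were 8.56, 8.36 and 7.81, with equal weight of cells 8.99, 7.54 and 8.48, and in Xist-only cells 9.21, 9.83 and 10.35. Other shifts without cells of foreign markers included those of Cxcl5, from 9.16 to 8.09, of Fabp5, from 4.13 to 3.22, of Mmp13, from 6.76 to 7.49, and of Ctla2a, from 6.17 to 7.32.

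Cxcl5 and Cxcl2, chemokines that attract neutrophils, were at 0.860 and 493 CPM and at 22.9 and 481 CPM, with log2 ratios of 9.16 (8.42 to 10.03) and 4.39 (4.25 to 4.54). The uninjured level of Cxcl5 rests on 14 UMIs. The collagenase gene Mmp13 was at 12.1 and 1314 CPM (6.76, but 11.83 without the 38 uninjured and 264 21 dpi cells of the osteochondral gate described below) and the stromelysin gene Mmp3 at 45.0 and 1662 CPM (5.21). The value of 11.83 rests on few uninjured UMIs. Tnfsf11, the RANK ligand that drives osteoclast formation, was at 2.40 and 103 CPM (5.43), or 6.64 without the osteochondral gate, 1.86 within it and 4.46 in thinned cells. Ereg, a ligand of the EGF receptor, was at 2.27 and 154 CPM (6.08). Acan, the cartilage proteoglycan aggrecan, was at 2.03 and 145 CPM (6.16).

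The other genes among the 15 with the highest ratios were Tnn, a tenascin, at 5.84 and 174 CPM (4.89), Cthrc1, a secreted protein of matrix-producing fibroblasts, at 25.7 and 624 CPM (4.60), and Brinp3 at 7.86 and 212 CPM (4.76). Ctla2a, an inhibitor of cathepsin L-like proteases, was at 13.1 and 942 CPM (6.17) and the fatty acid binding gene Fabp5 at 26.9 and 472 CPM (4.13). The plot of log2 ratios gives each value beside that of Xist-only cells, in which the 15 genes lay between 4.08 and 10.35.

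**Figure D2:**
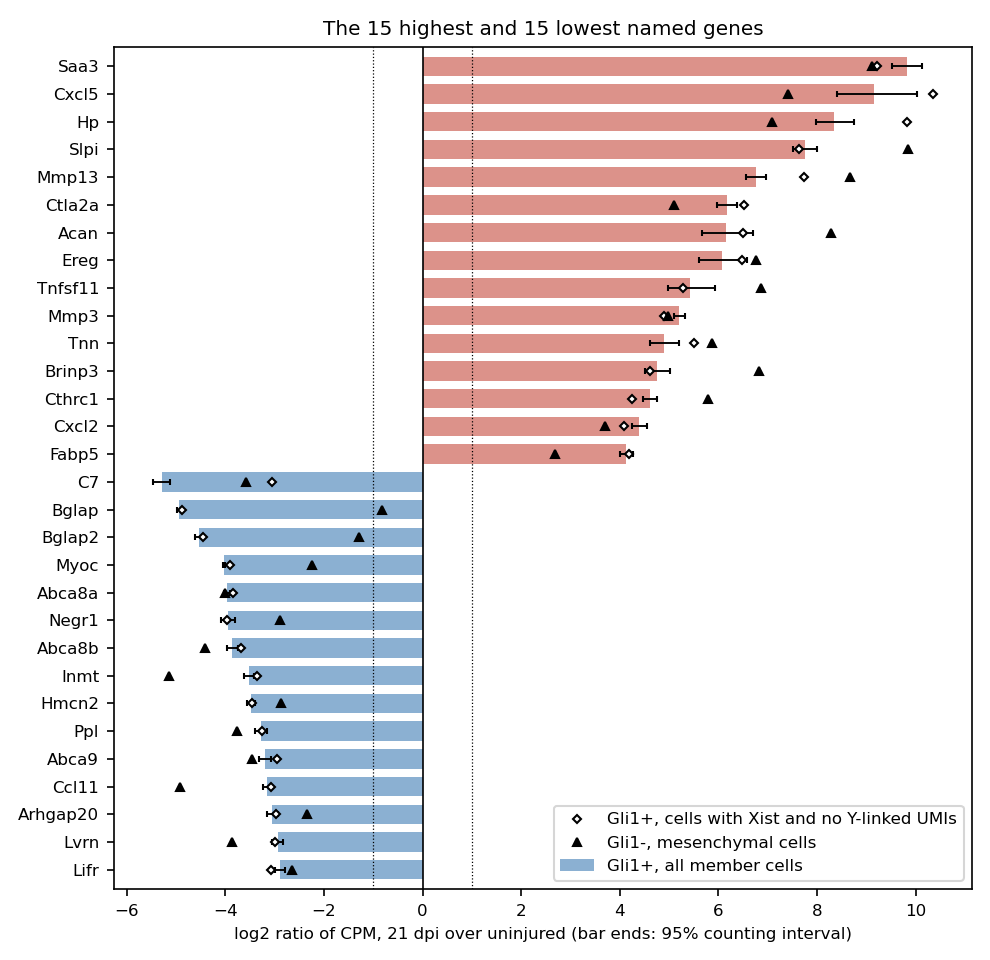
Log2 ratios of CPM, 21 dpi over uninjured, for the 15 genes with the highest and the 15 with the lowest ratio among genes of at least 100 CPM in the higher library. Predicted, mitochondrial, ribosomal protein and sex genes and markers of other cell types, among them Acta2, were left out. Bars are the Gli1+ member cells with 95% counting intervals, open diamonds the Xist-only cells and triangles the Gli1- mesenchymal cells, and dotted lines mark a 2-fold difference. All 30 genes point the same way in the 3 sets. They were chosen for their ratios in the member cells, of which the Xist-only cells are a part. In Gli1- cells Bglap was at -0.82, under the 2-fold limit.

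The sequences before the start sites of the highest genes are given for orientation, since these genes were higher together. For each gene the 250 bases upstream of the RefSeq start site are shown 5′ to 3′ on the strand of the gene (build GRCm38.p6), with a match to a searched motif in capitals. The genes are the 4 highest with a single entry in the RefSeq table, and the windows are Saa3 chr7:46715677-46715926 (minus strand), Slpi chr2:164356508-164356757 (minus strand), Mmp13 chr9:7272264-7272513 (plus strand) and Acan chr7:79052976-79053225 (plus strand).
Saa3: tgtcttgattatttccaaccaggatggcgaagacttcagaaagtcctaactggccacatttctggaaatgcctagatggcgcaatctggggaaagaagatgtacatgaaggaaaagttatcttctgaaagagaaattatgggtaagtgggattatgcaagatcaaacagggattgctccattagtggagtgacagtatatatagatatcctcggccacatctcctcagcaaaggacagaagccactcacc
Slpi: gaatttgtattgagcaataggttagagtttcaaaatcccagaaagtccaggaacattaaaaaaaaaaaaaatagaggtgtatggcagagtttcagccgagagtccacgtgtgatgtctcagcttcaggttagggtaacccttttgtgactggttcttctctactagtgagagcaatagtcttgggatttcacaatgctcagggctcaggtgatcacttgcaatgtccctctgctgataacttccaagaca
Mmp13: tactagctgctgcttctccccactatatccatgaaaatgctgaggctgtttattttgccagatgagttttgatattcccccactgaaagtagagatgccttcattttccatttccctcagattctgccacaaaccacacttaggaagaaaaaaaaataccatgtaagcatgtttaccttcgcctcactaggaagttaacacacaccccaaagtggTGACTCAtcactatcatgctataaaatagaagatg
Acan: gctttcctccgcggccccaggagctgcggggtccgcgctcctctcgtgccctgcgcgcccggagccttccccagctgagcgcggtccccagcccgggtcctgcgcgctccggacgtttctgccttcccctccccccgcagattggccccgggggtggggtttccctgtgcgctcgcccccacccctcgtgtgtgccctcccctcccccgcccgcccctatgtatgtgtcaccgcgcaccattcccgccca
The motifs searched on both strands were TGACGTCA (cyclic AMP response element), TGACTCA (AP-1) and GACCACCCA (GLI). The AP-1 letters TGACTCA stood at -35 to -29 from the Mmp13 start site, and the other 3 windows held none of the 3 motifs. Of the 30 named genes 21 had an entry, with 25 windows in all. The AP-1 letters were found in 5 windows of 4 of these genes, Mmp13, Mmp3, Ctla2a and Hmcn2, against 4.46% of all 32851 promoters. The cyclic AMP response element and the GLI letters were found in 0 of the 25 windows, against 1.55% and 0.225% of all promoters. These matches describe letters in a window and do not show that a factor binds there.

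After thinning, which equalizes depth, the highest genes were detected in a minority of cells. When each cell was thinned to 2000 UMIs, with 1582 uninjured and 5717 21 dpi members deep enough, Saa3 was detected in 0.569% of uninjured and 31.5% of 21 dpi cells (1.19% and 59.4% without thinning). The 5% of cells with the most Saa3 UMIs held 80.8% of them at 21 dpi. Among endothelial cells (with Cdh5 and Pecam1 UMIs and without Pdgfra and Ptprc), with median depths of 4980 UMIs in the uninjured and 7068 UMIs in the 21 dpi library, the Saa3 shares were 0% and 17.4%, the latter at a level of 86.4 CPM. A Saa3 UMI in a cell at 21 dpi is therefore no proof of expression by that cell. For Mmp13 the thinned shares were 0.632% and 23.2%, with 13.5% of endothelial cells at 21 dpi. Cthrc1 had the highest share of the 15 genes at 21 dpi. It was detected in 2.34% of uninjured and 42.8% of 21 dpi cells, with 1.85% and 8.70% of endothelial cells. In Ctla2a and Fabp5 the endothelial shares at 21 dpi, 76.5% and 41.7%, were above the mesenchymal shares of 30.1% and 21.4%. Endothelial cells of the uninjured library also held both genes, at 485 and 358 CPM. For these genes they are thus no background, and the shares cannot tell whether the mesenchymal cells expressed them.

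**Figure D3:**
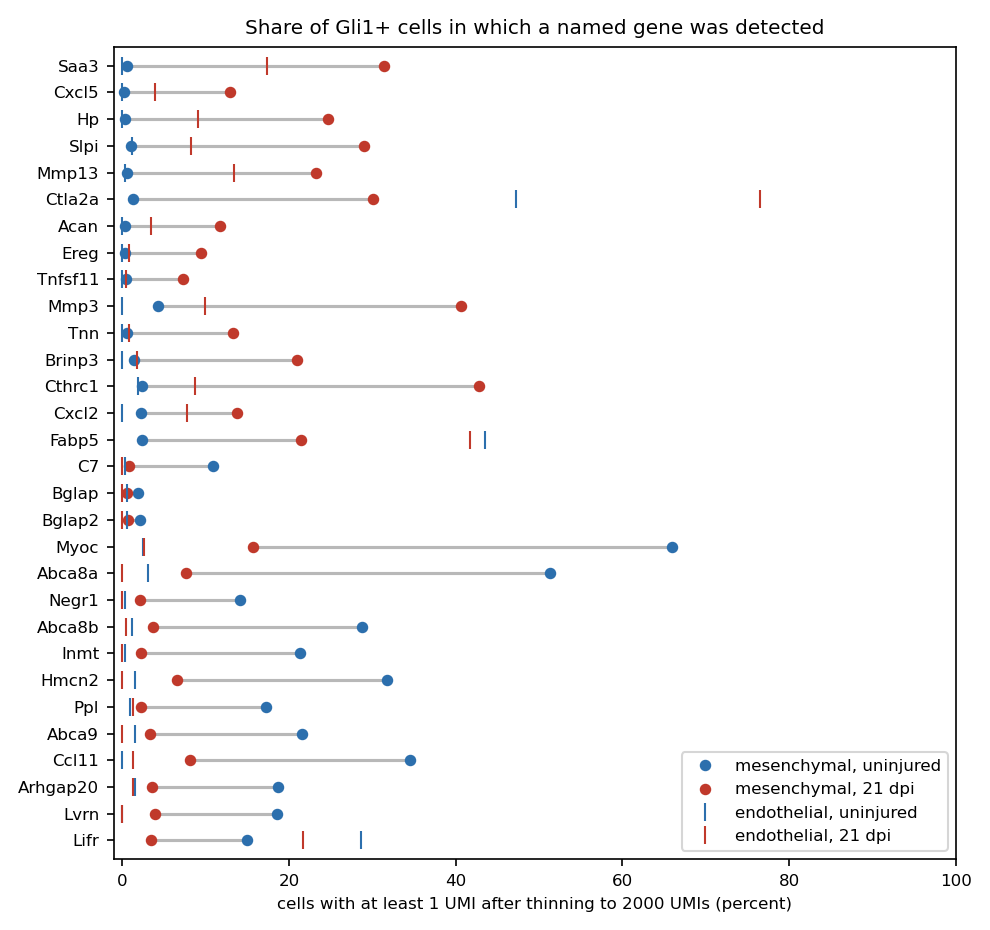
Share of Gli1+ cells with at least 1 UMI of each named gene after thinning to 2000 UMIs per cell, in percent. Circles are mesenchymal cells (1582 uninjured in blue, 5717 at 21 dpi in red) and vertical ticks endothelial cells (324 and 230). Shares of the highest genes lay between 0.190% and 4.36% in uninjured and between 7.29% and 42.8% in 21 dpi cells, and that of Myoc was 65.9% and 15.7%.

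In the list of acute phase genes and cytokines, 14 of 36 compared members were higher and 3 lower (21 and 3 with TMM scaling), with a median log2 ratio of 0.75 against -0.21 over all genes. Of these members 6, among them Saa3, Hp, Cxcl5 and Il11, reached 10 CPM at 21 dpi alone, so their direction was fixed. Besides the genes above, Il11, a cytokine of the gp130 family, was at 2.95 and 64.6 CPM (4.45), and 95.9% of its UMIs at 21 dpi lay in the highest 5% of cells. Lcn2, an iron-scavenging acute phase protein, was at 23.0 and 169 CPM (2.88). Ccl7, a monocyte chemokine, was at 81.6 and 466 CPM (2.51), and Ptx3, a soluble pattern receptor, at 38.9 and 196 CPM (2.33). The lower members included Ccl11, an eosinophil chemokine, at 345 and 38.5 CPM (-3.16), and the macrophage growth factor Csf1 at 161 and 50.4 CPM (-1.67). Cytokine genes thus lay on either side.

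Of 21 compared interferon-stimulated genes, 0 were higher and 10 lower (2 and 8 with TMM scaling), at a median log2 ratio of -0.92 and a summed level of 3697 CPM in uninjured and 3444 CPM in 21 dpi cells. Ifit1, an antiviral RNA-binding protein, was at 17.9 and 2.96 CPM (-2.59), Isg15, a ubiquitin-like modifier, at 18.2 and 5.68 CPM (-1.68) and the interferon signal transducer Stat2 at 85.2 and 22.6 CPM (-1.91). Ifit1 and Isg15 were among 8 members that passed the 10 CPM minimum through the uninjured library alone, and Ifit1 was detected in 3.16% and 0.560% of thinned cells. The uninjured library is also the one rich in leukocytes. Without the cells that held foreign markers, the log2 ratio of Ifit1 was -2.69, that of Stat2 -1.81 and that of Isg15 -0.98, the last under the 2-fold limit.

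Of 27 compared collagen genes 12 were higher and 6 lower (15 and 6 with TMM scaling), with 5 that reached 10 CPM in uninjured cells alone, and their summed level was 15848 CPM in uninjured and 46556 CPM in 21 dpi members. Col3a1, the fibrillar collagen of healing tissue, was at 1717 and 13182 CPM (2.94, 2.92 to 2.96). Col1a1, the main collagen of tendon and bone, was at 4799 and 15889 CPM (1.73) and Col1a2 had a log2 ratio of 0.95. Of the uninjured UMIs of Col1a1 and Col1a2, 55.0% and 46.7% lay in 38 cells with high counts of bone or cartilage genes (the osteochondral gate described below), within which the log2 ratios were -1.18 and -1.80. Without these cells they were 2.76 and 1.74, so that both collagens were past the 2-fold limit in the other cells. Col12a1, a collagen on the surface of fibrils, was at 148 and 686 CPM (2.21), and the type VI genes Col6a1, Col6a2 and Col6a3 had log2 ratios of 1.20, 1.04 and 1.11, of which the last 2 lay under the 2-fold limit with equal weight of cells (0.94 and 0.90). In uninjured members the highest 5% of cells held 72.9% of the Col1a1 UMIs, against 20.6% at 21 dpi, so that Col1a1 was less concentrated after injury. The lower collagens included the basement membrane genes Col4a3, Col4a4 and Col4a5 (-4.51, -2.64 and -2.64), at 13.5, 26.2 and 20.9 CPM in uninjured cells, and Col15a1, a collagen next to basement membranes, at 253 and 55.5 CPM (-2.18).

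In the machinery that folds, modifies and secretes collagen most members were not called by total UMIs, which did not hold with TMM scaling. Of 44 compared members 10 were higher and 1 lower by total UMIs (22 and 1 with TMM scaling), and the median log2 ratio was 0.59. Serpinh1, the collagen chaperone HSP47, was at 357 and 1092 CPM (1.61), and the prolyl isomerase gene Fkbp10 at 58.8 and 156 CPM (1.40). Lox, which cross-links collagen, was at 185 and 406 CPM (1.14) and Sparc, a collagen-binding matricellular protein, at 3749 and 11996 CPM (1.68). The lower member was Pcolce2, an enhancer of procollagen processing, at 525 and 93.6 CPM (-2.49).

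Matricellular and repair genes had 13 higher and 3 lower members among 35 compared (19 and 0 with TMM scaling). Postn, a matrix protein of scar and periosteum, was at 183 and 1697 CPM (3.21), Tnc, a tenascin of loaded and healing tendon, at 99.8 and 860.5 CPM (3.11), and Lrrc15, a membrane protein of activated fibroblasts, at 6.88 and 113 CPM (4.03). Fn1, the fibronectin gene, had a log2 ratio of 1.10, between 1022 and 2194 CPM. The 3 lower members were the hyaluronan synthase gene Has2 (-1.37) and the small proteoglycan genes Omd (-1.31) and Ogn (-1.09), of which Omd and Ogn were at -0.79 and -0.94 in Xist-only cells, under the limit. Contractile genes had 6 higher and 2 lower of 11 (7 and 1 with TMM scaling). Of these 11, 1 reached 10 CPM at 21 dpi alone and 2 in uninjured cells alone, so that their direction was fixed. Acta2, smooth muscle actin, was at 13.1 and 238 CPM (4.18) and Tagln at 8.78 and 125 CPM (3.83). Since pericytes express both genes, the pericyte marker Rgs5 is given beside them, at 4.61 and 58.3 CPM, and the highest 5% of cells held 79.2% of the Acta2 UMIs at 21 dpi. Without cells that held Rgs5 or other foreign markers the log2 ratio of Acta2 was 4.19.

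Among proteases and their inhibitors 9 of 26 were higher and 2 lower (14 and 2 with TMM scaling). Timp1, an inhibitor of matrix metalloproteinases, was at 62.9 and 1001 CPM (3.99), whereas its relative Timp3 was at 798 and 211 CPM (-1.92). Ctsk, the collagen-degrading cathepsin K, was at 157 and 827 CPM (2.40), and Mmp14, a membrane-bound protease that activates others, at 177 and 512 CPM (1.53). Unlike Mmp13 and Mmp3, Ctsk and Mmp14 were spread over the cells, with 18.7% and 19.9% of their UMIs at 21 dpi in the highest 5% of cells.

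Tendon identity genes differed among themselves. Of 19 compared members 8 were higher and 4 lower (10 and 3 with TMM scaling), at a median log2 ratio of 0.65. Scx, the tendon transcription factor, was at 23.3 CPM (21.1 to 25.8) and 55.3 CPM (53.5 to 57.2), a log2 ratio of 1.25 (1.09 to 1.40). Lum and Bgn, proteoglycans that bind collagen fibrils, were at 536 and 2016 CPM (1.91) and at 904 and 2519 CPM (1.48). The Scx target Tnmd, tenomodulin, was at 85.6 and 198 CPM (1.21), and the collagen-binding proteoglycan gene Fmod at 607 and 584 CPM (-0.06). The transcription factor Mkx was at 21.6 and 17.7 CPM (-0.29). Lower members were Prg4, the lubricin of sliding surfaces, at 1648 and 348 CPM (-2.24), Angptl7 at 549 and 124 CPM (-2.14), Chad, a cartilage and tendon matrix protein, at 186 and 47.5 CPM (-1.97) and the proteoglycan gene Dcn at 17448 and 8259 CPM (-1.08), the last at -0.67 with TMM scaling and -0.97 in Xist-only cells, where it is not called. Prg4, Angptl7 and Chad were concentrated in few cells, with 61.7%, 67.9% and 88.9% of their uninjured UMIs in the highest 5% of cells.

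Of the chondrocyte genes 9 passed the 10 CPM minimum through the 21 dpi library alone (Acan, Hapln1, Snorc and Col10a1 among them), which fixed their direction, so that the counts and the median of this list describe those that passed. Of 17 compared members 12 were higher and 1 lower (13 and 0 with TMM scaling), with a median log2 ratio of 2.89. Col2a1, the collagen of cartilage, was at 39.9 and 296 CPM (2.89, 2.78 to 3.01), and 97.4% of its UMIs at 21 dpi lay in the highest 5% of cells. Hapln1, which links aggrecan to hyaluronan, was at 1.90 and 38.6 CPM (4.34), and Col10a1, a collagen of hypertrophic chondrocytes, at 0.0614 and 21.1 CPM (8.42, 5.94 to 13.73), with a single UMI in the uninjured library. In the cells without foreign markers it was not past the 2-fold limit. Snorc, a transmembrane proteoglycan of chondrocytes, was at 0.184 and 34.9 CPM (7.57, 6.02 to 9.84), with 3 UMIs in the uninjured library. Sox9, the master factor of cartilage, was at 68.9 and 85.3 CPM (0.31), and was not called. Acan was less confined to few cells than Col2a1. It was detected in 11.8% of thinned 21 dpi cells against 5.04% for Col2a1, and 37.7% of its UMIs at 21 dpi lay in cells with at least 3 UMIs of Col2a1, Bglap or Ibsp, called the osteochondral gate below, against 96.5% for Col2a1, a rule gene of that gate.

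Bone genes lay on both sides. Of 14 compared members 2 were higher and 6 lower (4 and 5 with TMM scaling), with 4 that reached 10 CPM in uninjured cells alone. Bglap, the osteocalcin gene of mature osteoblasts, was at 1477 and 48.2 CPM (-4.94) and its near-identical neighbor Bglap2 at 480.2 and 20.7 CPM (-4.54), and reads may be split between the 2 genes in an uncertain way. Nearly all of these UMIs, 99.8% of uninjured and 97.4% of 21 dpi Bglap UMIs, lay in cells of the osteochondral gate. Bglap is a rule gene of that gate, so that these shares and its ratios outside the gate were shaped by the choice. Without that gate the log2 ratio of Bglap was -1.36 and that of Bglap2 was of the opposite sign, 0.47. Ibsp, bone sialoprotein, was at 229.6 and 504 CPM (1.13), but at 0.86 in Xist-only cells and 0.52 in cells with at least 2 Pdgfra UMIs, under the 2-fold limit, and at 4.03 without the osteochondral gate, of which it is a rule gene. Spp1, osteopontin, was at 189.7 and 1117 CPM (2.56), and at a log2 ratio of 4.92 in Xist-only cells. Phex, a peptidase of osteoblasts and osteocytes, was at 18.9 and 3.60 CPM (-2.39), but at -0.85 without the osteochondral gate, under the limit. Runx2, the osteoblast transcription factor, was at 73.2 and 71.0 CPM (-0.04) and was not called, but its log2 ratio was 0.91 without the osteochondral gate and 1.24 without that gate in Xist-only cells, the latter past the limit and chosen after seeing the data. The share of uninjured Runx2 UMIs in the highest 5% of cells was 79.8%, against 39.5% at 21 dpi.

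The osteochondral gate, a range of counts and not a cell type, took in cells with at least 3 UMIs of Col2a1, Bglap or Ibsp. It held 38 uninjured members, 2.38% (1.69 to 3.25), and 264 members at 21 dpi, 4.55% (4.03 to 5.12), of which 4 and 39 lay at the limit of 3 UMIs. The 38 uninjured cells were mostly high in Bglap, with more Bglap than Col2a1 UMIs in 30 and the reverse in 5. At 21 dpi 24 cells had more Bglap and 185 more Col2a1. At least 3 UMIs of Col2a1, Bglap and Ibsp were held by 19, 30 and 26 uninjured cells. At 21 dpi these numbers were 170, 14 and 126, and a cell can count for more than 1 gene. The remaining members fell, in this order, into cells with Pi16 or Dpp4 (54.9% uninjured, 54.3% at 21 dpi), with Scx (5.51% and 11.6%), with Ly6a (24.8% and 22.0%) and the rest (12.4% and 7.53%). Depth differed between gates, and cells of the Scx gate had medians of 10685.5 and 14105.5 UMIs and the rest 6349 and 5345 UMIs. The 15 highest genes were at least 2-fold higher at 21 dpi in all 5 gates, with a gene of 0 UMIs in a gate set to 3, which is a description, since they were chosen for their ratios in the same cells. The 21 dpi level of Saa3 ran from 3199.5 CPM in the Pi16 or Dpp4 gate to 9164 CPM in the Scx gate, and its uninjured level was at most 29.6 CPM, in the rest. Mmp13 differed in place, since 97.5% of its uninjured but 16.2% of its 21 dpi UMIs lay in the osteochondral gate, and its log2 ratio was 11.83 without that gate. This 11.83 rests on the few of its 197 uninjured UMIs that lay outside the gate. Of the 15 lowest genes 9 were at least 2-fold lower in all 5 gates, and Bglap2 had a log2 ratio above 0 in 3 of them. Negr1, Hmcn2, Ppl and Lvrn missed the 2-fold limit in the osteochondral gate, with log2 ratios from -0.94 to -0.72, and Bglap in the Pi16 or Dpp4 gate (-0.83).

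Among the genes with the lowest ratios were those of a complement component, of lipid transporters and of matrix and bone proteins. C7, the complement component 7, was at 172 CPM (166 to 179) in uninjured and 4.39 CPM (3.90 to 4.92) in 21 dpi members, a log2 ratio of -5.29 (-5.47 to -5.12), which was -3.06 in Xist-only cells. Myoc, the extracellular protein myocilin, was at 2768 and 169.6 CPM (-4.03), and was detected in 65.9% of thinned uninjured and 15.7% of 21 dpi cells (79.2% and 24.3% without thinning), with 2.47% and 2.61% of endothelial cells. In percentage points no other of the 15 lowest genes differed as much in its share of cells. The lipid transporter genes Abca8a, Abca8b and Abca9, neighbors of like sequence, were at 519, 201 and 124 CPM in uninjured and 33.2, 13.8 and 13.5 CPM in 21 dpi members (-3.97, -3.86 and -3.20). Inmt, a methyltransferase, was at 189 and 16.4 CPM (-3.53), and Hmcn2, the matrix protein hemicentin 2, at 306 and 27.4 CPM (-3.48). Lifr, the receptor of LIF, was at 131 and 17.7 CPM (-2.89). It was detected in 14.98% of uninjured and 3.41% of 21 dpi thinned cells, below the endothelial shares of 28.7% and 21.7%. Endothelial cells held Lifr at 221 and 136 CPM, so they are no background for it. Their shares cannot tell whether the mesenchymal cells expressed Lifr. Of its uninjured UMIs 41.8% lay in the osteochondral gate. The log2 ratio of Lifr was -4.61 within that gate and -2.35 without it. The adhesion gene Negr1, the plakin gene Ppl, the gene Arhgap20 and the peptidase gene Lvrn had log2 ratios between -3.94 and -2.94. The median of the thinned shares of the 15 lowest genes was 18.6% of uninjured and 3.41% of 21 dpi cells.

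Stem and adventitial markers had 0 higher and 8 lower members of 19 compared (1 and 7 with TMM scaling), with a median log2 ratio of -0.70. Dpp4, a surface peptidase of adventitial fibroblasts, was at 102 and 21.2 CPM (-2.27) and Cd34 at 579 and 209 CPM (-1.47). Tppp3, a marker of tendon sheath stem cells, was at 314 and 103 CPM (-1.60, -1.66 to -1.55). Pi16, often paired with Dpp4 as an adventitial marker, was at 380.5 and 417 CPM (0.13), and Ly6a, the stem cell antigen Sca-1, at 1022 and 922 CPM (-0.15). The markers thus came apart, with Dpp4, Cd34 and Tppp3 past the 2-fold limit and Pi16 and Ly6a near their uninjured level.

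**Figure D4:**
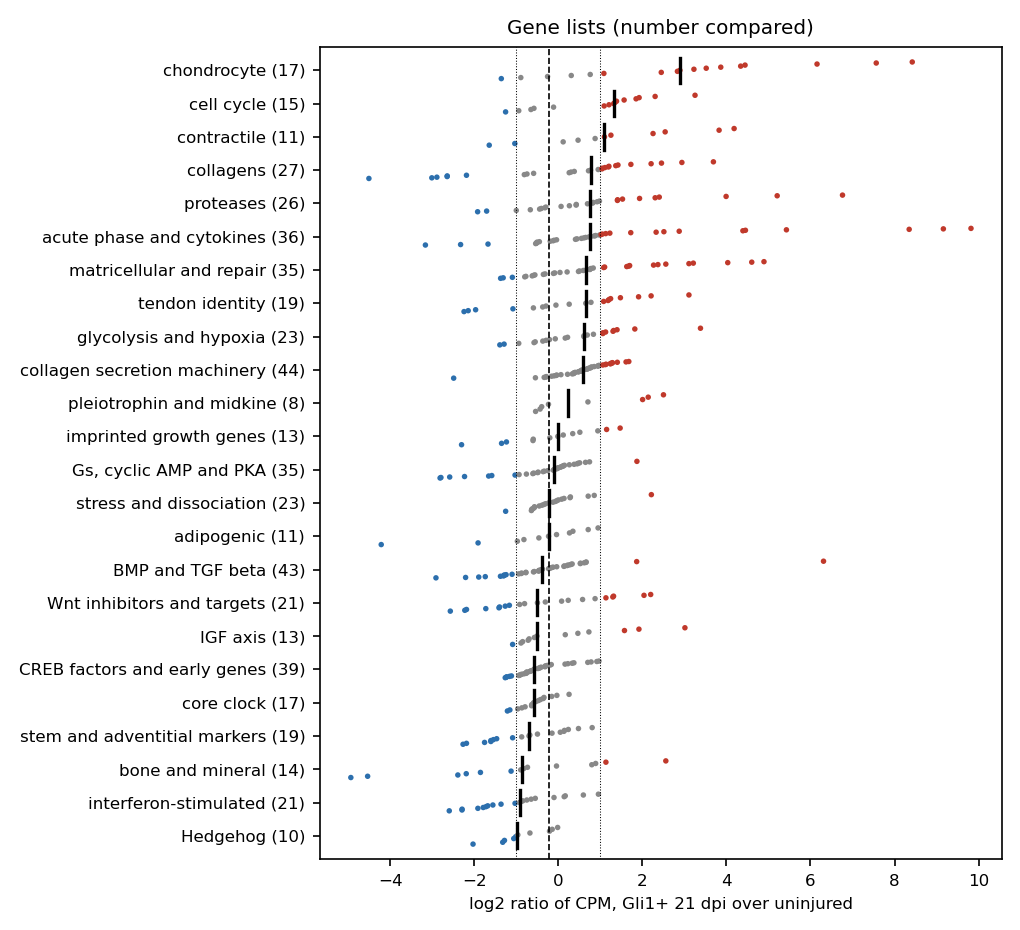
Log2 ratios of CPM, 21 dpi over uninjured, of the compared members of 24 gene lists in Gli1+ mesenchymal cells, with the number compared in brackets. Each point is a gene, red at 1 or more, blue at -1 or less and grey between, black bars are list medians and the dashed line is the median of all 9464 genes, -0.21. List medians run from -0.99 for Hedgehog genes to 2.89 for chondrocyte genes.

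Of 10 compared Hedgehog genes 0 were higher and 5 lower, with a median of -0.99 (-0.81 in Xist-only cells), but with TMM scaling 0 were higher and 1 lower. That gene was Gli1 itself, at 14.9 CPM (13.1 to 16.9) and 3.64 CPM (3.20 to 4.13), a log2 ratio of -2.03 (-2.29 to -1.77) that was -1.63 in Xist-only cells. Gli1 was 1 of 2 members that reached 10 CPM in uninjured cells alone, so its direction was fixed by the minimum. It was detected in 3.22% of thinned uninjured and 1.03% of 21 dpi cells, with 0.309% and 0.435% of endothelial cells. Ptch1, the receptor and another target gene, was at 46.3 and 23.0 CPM (-1.01), but -0.53 in Xist-only cells and -0.60 with TMM scaling, so its call does not hold there. The co-receptor genes Boc and Cdon were at 152 and 62.5 CPM (-1.28) and at 207 and 99.1 CPM (-1.06), and Smo and Gli3 had log2 ratios of -0.14 and -0.02.

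Of 35 compared genes of the Gs, cyclic AMP and PKA pathway 1 was higher and 7 lower (3 and 6 with TMM scaling). Over all genes 6.28% were higher and 11.9% lower. The list median was -0.10, or 0.31 with TMM scaling, against -0.21 and 0.20 over all genes. Gnas was at 1399 CPM (1381 to 1417) and 1514 CPM (1504 to 1523), a log2 ratio of 0.11 (0.09 to 0.13), or 0.53 with TMM scaling and 0.10 in Xist-only cells. The catalytic subunit genes of PKA, Prkaca and Prkacb, were at 21.7 and 20.6 CPM (-0.08) and at 52.6 and 51.5 CPM (-0.03), and the regulatory subunit gene Prkar1a at 97.3 and 135 CPM (0.47). The higher member was Pde4d, a phosphodiesterase that degrades cyclic AMP, at 165 and 602 CPM (1.87). Lower members included the PKA anchoring gene Akap12 at 262 and 37.3 CPM (-2.81), the receptor genes Calcrl at 60.3 and 8.70 CPM (-2.79) and Ramp1 at 96.1 and 30.5 CPM (-1.66), and the PKA inhibitor gene Pkia at 26.2 and 8.76 CPM (-1.58). Calcrl and Ramp1 form the receptor of the peptide CGRP. The genes of both Epac proteins, which carry the cyclic AMP signal past PKA, were also lower, Rapgef3 at 12.3 and 2.05 CPM (-2.58) and Rapgef4 at 29.4 and 6.27 CPM (-2.23). Both Epac genes, Calcrl and Pkia are the 4 members that reached 10 CPM in uninjured cells alone and whose direction was thus fixed. Transcript levels are not the activity of the pathway, which these libraries do not measure. The paper stained tendon sections for GNAS protein and for phosphorylated PKA substrates. It reported both as higher at 21 dpi than in uninjured tendon.

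CREB factors and early response genes had 0 higher and 5 lower members of 39, but 4 and 0 with TMM scaling. Over all genes 6.28% were higher and 11.9% lower, and with TMM scaling 14.0% and 5.84%. The share of lower members by total UMIs is near that over all genes and is no result about this list. Creb1 was at 51.6 and 30.5 CPM (-0.76) and Creb3 at 24.5 and 46.3 CPM (0.92). The early genes Egr1, Fos and Jun were at 3338 and 1425 CPM (-1.23), 6604 and 4375 CPM (-0.59) and 5704 and 3378 CPM (-0.76). Early genes also respond to tissue dissociation. In the list of stress and dissociation genes, 1 of 23 was higher and 1 lower (3 and 0 with TMM scaling), with a median of -0.23, which is 0.18 with TMM scaling. The higher one was Hmox1, heme oxygenase, at 21.8 and 101 CPM (2.21).

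In growth factor pathways single members differed. Of 43 BMP and TGF beta genes 2 were higher and 10 lower (5 and 4 with TMM scaling), with a median of -0.39 or, with TMM scaling, 0.02. The BMP antagonist gene Grem1 was at 1.04 and 82.9 CPM (6.31), with 80.3% of its UMIs at 21 dpi in the highest 5% of cells, and Inhba, the activin A subunit, at 39.6 and 144 CPM (1.87, but 0.97 in thinned cells). The ligand genes Bmp4 and Bmp2 were at 95.2 and 20.6 CPM (-2.21) and at 171 and 69.1 CPM (-1.31), and the receptor gene Acvr1 at 72.7 and 85.0 CPM (0.22). With TMM scaling Bmp2 was at -0.89, under the 2-fold limit. The ligand gene Bmp7 was at 26.6 and 3.54 CPM (-2.91). Both heparin-binding cytokine genes Ptn and Mdk were higher, Ptn at 50.4 and 203 CPM (2.01) and Mdk at 33.6 and 190.4 CPM (2.50), as was their co-receptor Sdc1 (2.14), and these were the 3 higher of 8 compared genes of that list, with 0 lower (4 and 0 with TMM scaling). Igf1 was at 314 and 935 CPM (1.57) and its binding protein genes Igfbp4 at 417 and 1578 CPM (1.92) and Igfbp2 at 2.40 and 19.3 CPM (3.01), in a list with 3 higher and 1 lower of 13 (4 and 0 with TMM scaling). Of the imprinted growth genes 2 of 13 were higher, H19 (1.47) and Mest (1.15), and 3 lower (3 and 1 with TMM scaling), with a median of -0.01 or, with TMM scaling, 0.40. H19 was at 0.996 in Xist-only cells and Mest at 0.67 with equal weight of cells, both under the 2-fold limit. Dlk1 was under 10 CPM in both libraries, at 9.40 and 1.61 CPM, and Igf2 at 0.184 and 0.364 CPM, near the detection limit.

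In the Wnt list 5 of 21 genes were higher and 8 lower (6 and 4 with TMM scaling), with 4 that reached 10 CPM in uninjured cells alone. The secreted inhibitor genes Sfrp2 and Sfrp1 were at 123 and 566 CPM (2.20) and at 101 and 414 CPM (2.04), whereas the inhibitor gene Dkk2 was at 175 and 37.4 CPM (-2.22). The ligand genes Wnt5a and Wnt11 were at 29.1 and 71.6 CPM (1.30) and at 43.2 and 7.29 CPM (-2.57), and Wnt5a was at 0.94 with equal weight of cells, under the 2-fold limit. Axin2, a target gene of the pathway, was at 36.4 and 13.7 CPM (-1.41), or at -0.9998 with TMM scaling, just under the 2-fold limit. Of 31 cell cycle genes 15 passed the 10 CPM minimum, 10 of them higher and 1 lower (10 and 0 with TMM scaling), while the summed level of all 31 was 724 CPM in uninjured and 606 CPM in 21 dpi cells. Mki67 and Top2a, used in dividing cells, were at 5.41 and 12.5 CPM and at 5.65 and 12.0 CPM, and were among 8 members whose direction was fixed, as they passed the minimum through the 21 dpi library alone. They were detected in 1.10% and 1.15% of thinned 21 dpi cells. Their log2 ratios of 1.21 and 1.09 were 0.73 and 0.85 in Xist-only cells, under the 2-fold limit. The largest part of the summed uninjured level was that of Cdkn1a, the cell cycle inhibitor p21, at 420.0 and 176 CPM (-1.25).

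Genes of glycolysis and hypoxia had 8 higher and 2 lower members of 23 (12 and 0 with TMM scaling). The higher ones included the glycolytic enzyme genes Pkm at 143 and 504 CPM (1.82) and Gapdh at 319 and 786 CPM (1.30), with the lactate exporter Slc16a3 at 2.27 and 23.7 CPM (3.38). The hypoxia target Vegfa was at 75.2 and 51.4 CPM (-0.55). Adipogenic genes had 0 higher and 2 lower of 11 (2 and 2 with TMM scaling), at a median of -0.23 or, with TMM scaling, 0.18. The lower ones were Lepr, the leptin receptor, at 54.1 and 2.91 CPM (-4.21) and the lipid carrier gene Apod at 3681 and 980.2 CPM (-1.91). Of 17 core clock genes 0 were higher and 2 lower, Npas2 (-1.21) and Per3 (-1.15), and with TMM scaling 0 and 0. The share of lower clock genes is near the 11.9% over all genes and is no result about the clock.

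The 7 dpi library of the Gli1+ sort shares the uninjured library as its reference, so that its values are given side by side and no overlap is read. Its cells were almost entirely without Xist and its 5221 members held Cntn5 at 150.3 CPM. Saa3 was at 359 CPM at 7 dpi and Mmp13 at 59.0 CPM, between the uninjured and 21 dpi levels, and Mmp3 at 212 CPM. The 7 dpi levels of Tnc and Postn, 1911 and 3196 CPM, were above those at 21 dpi. Acan was at 96.7 CPM, above uninjured cells, whereas Col2a1 and Ibsp were at 17.7 and 1.49 CPM, below uninjured cells. Isg15 was at 61.7 CPM, above both other libraries. Dpp4, C7 and Gli1 were at 11.8, 3.32 and 1.92 CPM, each below its 21 dpi level.

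**Figure D5:**
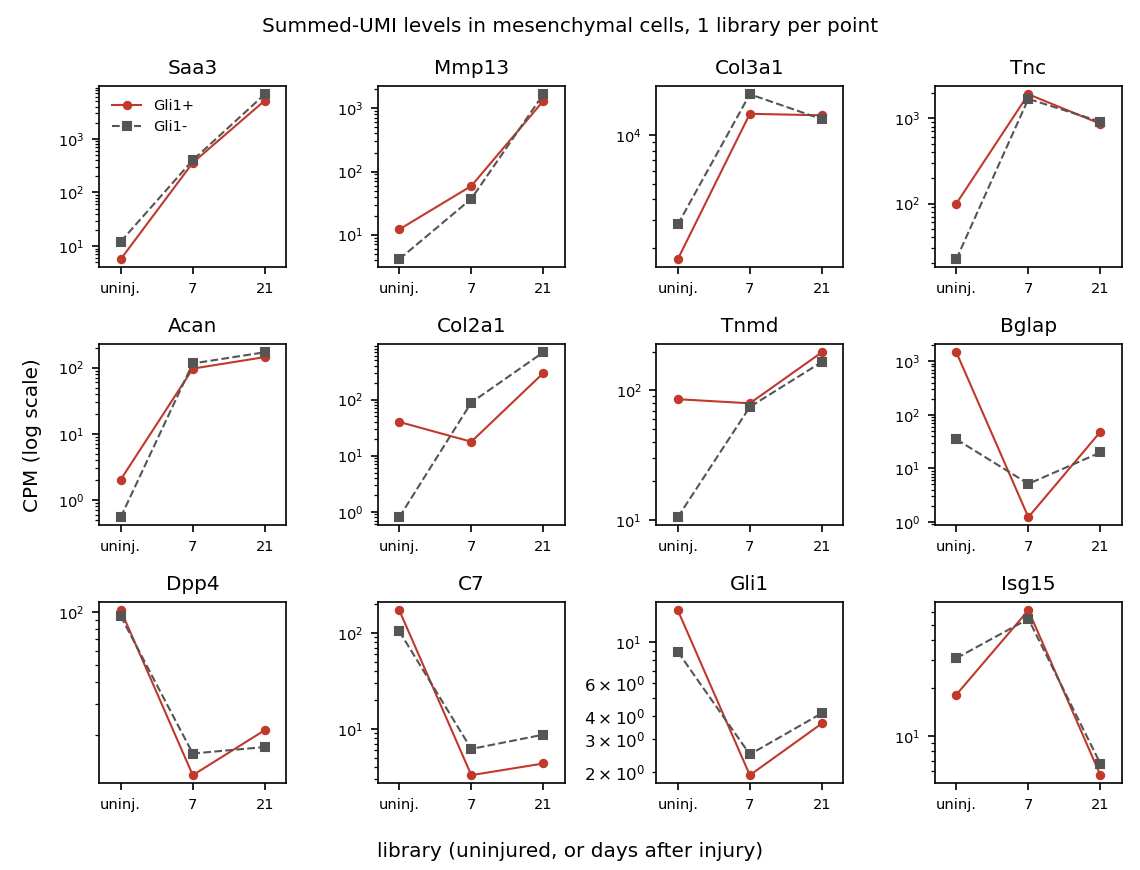
CPM on a log scale of 12 genes in the mesenchymal cells of the 6 libraries, by library (uninjured, 7 dpi, 21 dpi), with Gli1+ as red circles and Gli1- as grey squares. Each point is 1 library, lines join the libraries of a sort, and vertical axes differ between panels. The levels of Saa3 and Mmp13 were highest at 21 dpi in both sorts, and Dpp4, C7 and Gli1 were lower in the injured than in the uninjured libraries.

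The Gli1- sort was compared in the same way. The labels give the same groups of mice for both sorts, but the uninjured Gli1- library held 0 Xist-only cells against 63.5% in the uninjured Gli1+ library, so that these 2 libraries do not hold cells of the same mice in like shares. Its mesenchymal cells numbered 4657 in the uninjured and 5626 in the 21 dpi library, and its uninjured library lacked Xist-only cells, so that sex and injury cannot be told apart there. Of 9337 genes 852 (9.12%) were higher and 1130 (12.1%) lower at 21 dpi. The 2 sorts shared 446 higher genes, 75.1% of those of the Gli1+ and 52.3% of those of the Gli1- cells, and 629 lower genes, 55.7% of either. Saa3 was at 12.2 CPM in uninjured and 6769 CPM in 21 dpi Gli1- cells and Mmp13 at 4.09 and 1674 CPM. Gli1 was at 8.88 and 4.14 CPM in Gli1- cells, so that its present transcript was found in either sort. A difference between the sorts was not tested.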

How the data were processed

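Achilles tendon cells of pooled Gli1-CreERT2; Ai9 mice, sorted to Gli1+ and Gli1- fractions, were profiled by Chromium 3′ v3 single-cell RNA sequencing, in 6 libraries. Per the file headers the authors' count matrices were written by Cell Ranger 9.0.0, whereas the submitters' processing notes name Cell Ranger 3.1.0, STAR and build mm10. The deposited values are counts of UMIs per cell and 33696 genes, and the annotation release is not given in the sources used here.

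Members were chosen by the stated filters (at least 1000 UMIs, at least 200 genes and at most 5% mitochondrial UMIs) and the Pdgfra, Ptprc and Cdh5 rule. UMIs were summed over the members of a library and scaled to CPM by its total, with exact Poisson 95% intervals for levels, binomial intervals given the summed count for ratios and exact binomial intervals for shares. A count of 0 was set to 3 UMIs, also in genes at 0 in both libraries, which did not reach the minimum CPM. Genes of at least 10 CPM in either library were compared and called at a 2-fold difference. The text names the 15 highest and 15 lowest genes of at least 100 CPM in the higher library, genes of the study's question and members of 24 gene lists. The ranking left out predicted genes, mitochondrial and ribosomal protein genes, sex genes and genes of the marker lists of other cell types. Members, lists and alternatives were chosen with earlier results of these data known, and list examples after their values were seen. Doublets were not removed, and Scrublet (scanpy 1.11.5) served as an alternative. The TMM scaling used edgeR 4.0.16 (R 4.3.3), with which no test was run. Other steps used Python 3.11.15, numpy 2.4.6 and scipy 1.17.1, and the ratio and its interval were checked on simulated counts. Thinning drew 2000 UMIs per cell. Promoters came from a RefSeq table of build GRCm38.p6. The alternatives were TMM scaling, other minimum CPM values, other cell filters, doublet removal, at least 2 Pdgfra UMIs, no cells with foreign markers, equal weight of cells, thinning, Xist-only cells, no osteochondral gate and a total without abundant genes.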

Additional observations from a re-analysis of the deposited data

Results flagged for a closer look

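Several genes past the 2-fold limit between uninjured and 21 dpi Gli1+ mesenchymal cells had a log2 ratio of the opposite sign in the Gli1- cells at 21 dpi. Chad was at -1.97 in Gli1+ and 1.71 in Gli1- cells, and Npas2 at -1.21 and 1.55. Cdon was at -1.06 and 0.45, and Cdkn1a at -1.25 and 0.44. Prg4 was at -2.24 and 0.18, and Angptl7 at -2.14 and 0.011, the Gli1- values of both being small. Each value compares 1 library with 1 library, and the difference between the sorts was not tested. The uninjured Gli1- library lacked Xist-only cells and held Cntn5 at 477.3 CPM, whereas the uninjured Gli1+ library held 63.5% Xist-only cells.

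Other genes past the limit at 21 dpi had the opposite sign at 7 dpi against the same uninjured library. Ibsp was at -7.26 at 7 dpi and 1.13 at 21 dpi, and Col2a1 at -1.17 and 2.89. Both are rule genes of the osteochondral gate, which held 38 uninjured members, 26 of them with at least 3 Ibsp UMIs. At 21 dpi Ibsp was at 0.86 in Xist-only cells and 0.52 with at least 2 Pdgfra UMIs, under the 2-fold limit. Tnmd was at -0.11 and 1.21. In the interferon-stimulated genes Isg15 was at 1.76 at 7 dpi and -1.68 at 21 dpi, and Ifit1 at 0.60 and -2.59. The differences between the days were not tested. The 7 dpi cells were almost without Xist, and time, sex and library cannot be told apart there.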

How the results depend on the processing

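Of 127 named genes past the 2-fold limit, 127 kept it with the filters of the study added or with Scrublet doublets removed, 125 with no filters on cells, 126 in cells with at least 2 Pdgfra UMIs, 123 without the osteochondral gate, 120 without cells of foreign markers or with equal weight of cells, 119 in Xist-only cells, 117 in thinned cells and 114 with TMM scaling. With a total that left out mitochondrial, ribosomal and the 20 most abundant genes 122 of 123 kept it. The sign of Bglap2 changed without the osteochondral gate, to 0.47, and, in a comparison chosen after seeing the data, to 0.69 without that gate in Xist-only cells. Calls of Ptch1, Cdon, Ogn and Dcn were lost under 5 of the alternatives each. The counts of genes higher at 21 dpi and genes lower at 21 dpi, 594 and 1129, were 1322 and 553 with TMM scaling, 298 and 409 with a minimum of 50 CPM and 1783 and 8747 with no minimum. Genes at 0 UMIs in both libraries were left out of the last count, but genes with few UMIs were not. A gene with 0 uninjured UMIs was set to 3 there, and 3 UMIs weigh more in the shallower uninjured library. With few UMIs at 21 dpi such a gene could be called lower, so this is no count of differences. With at least 2 Pdgfra UMIs the mesenchymal shares were 17.1% and 34.5% in place of 21.3% and 54.3%. A comparison of cells with Y-linked and no Xist UMIs was not run, since 5 such cells were at 21 dpi. Dlk1, under 10 CPM, was left out of the calls by the minimum CPM, and Igf2, at under 1 CPM, is limited by depth. No paired analysis was possible because each condition is a single library.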
